A study of Mus musculus with 4 samples.

Results

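Transcript levels of 10 genes that form or degrade oxylipins were examined in 4 liver samples of male mice of the C57BL/6J strain, 18 weeks old. The genes were Ephx1, Ephx2, Lta4h, Hpgd, Ptgr1, Ptgs1, Alox5ap, Ltc4s, Ptges2 and Ptges3, each found once, by its symbol, among the 24138 rows of the deposited expression table. The mice had been fed the FAT-MASH diet, which produces metabolic dysfunction-associated steatohepatitis (MASH, fatty liver with inflammation and scarring), and had been treated with resolvin D1 (RvD1). RvD1 is a lipid mediator made from docosahexaenoic acid and is known for its action in the resolution of inflammation. The labels give 1 group only, and the dose and timing of RvD1 are not given in the sources used here. Livers on the diet alone, or without it, were not analysed here, so the values below describe levels and their spread between samples and not an effect of the diet or of RvD1.

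Oxylipins are oxygenated products of polyunsaturated fatty acids. Cyclooxygenases start the path to prostaglandins, the lipoxygenase Alox5 with its helper protein starts the path to leukotrienes and takes part in the synthesis of resolvins, and cytochrome P450 enzymes make fatty acid epoxides. Epoxide hydrolases, dehydrogenases and reductases then convert or inactivate these products, and liver is a main site of that clearance.

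Levels are given in FPKM, fragments scaled by transcript length and by library size, a unit that allows genes of different length to be compared. All 10 genes were above 0 in every liver, and 10 of 10 averaged 1 FPKM or more, a level reached by 43.7% of all rows in the table. The 10 genes were chosen with earlier results of these data known, so this count is not a result about the pathway. The means spanned from 408 FPKM for Ephx2 to 1.02 FPKM for Ltc4s. The order by mean was Ephx2, Ephx1, Hpgd, Ptges3, Lta4h, Ptges2, Alox5ap, Ptgs1, Ptgr1 and Ltc4s.

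**Figure D1:**
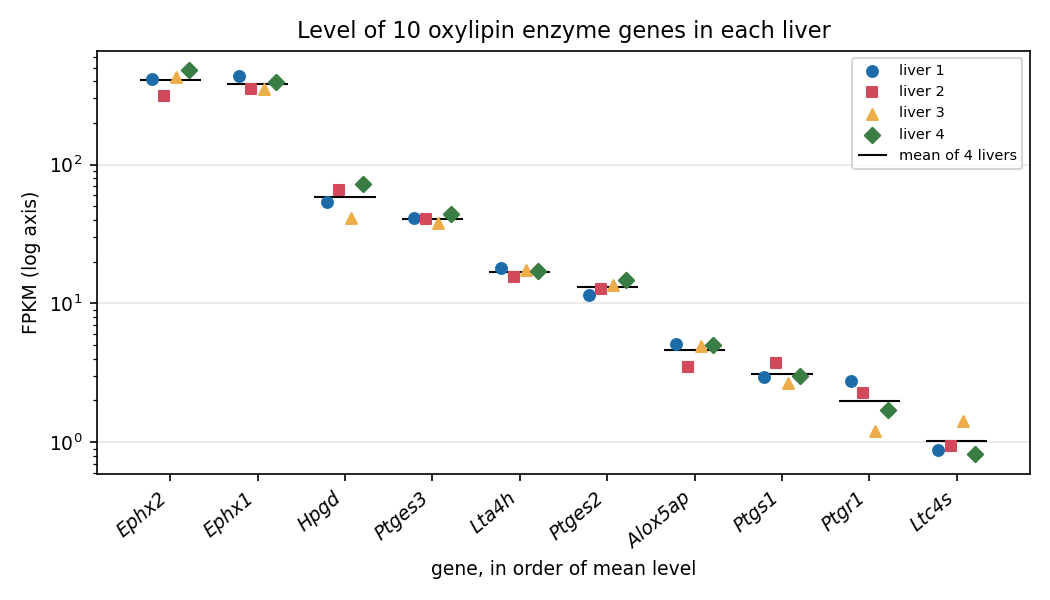
Level of each of the 10 genes (x axis, in order of mean) in FPKM on a log axis (y axis), with a point for each of the 4 livers and a bar at their mean. Ephx2 and Ephx1 lie between 313 and 481 FPKM in every liver, and Ltc4s lies between 0.815 and 1.43 FPKM.

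The depth of the libraries was estimated at 18.8 to 20.1 M fragments from the lowest values in the table. Only values within a fixed window were used, which limited in advance how far this estimate could move. The fragment numbers and Poisson intervals below rest on it. The column sums lay between 516816 and 570681 FPKM, with the largest in liver 4. The hepatocyte markers fixed for this work, Apoa2, Apoa1 and Fabp1 among them, were present in all livers, and 8 of 8 averaged 1 FPKM or more. Liver 2 was highest in genes of the acute phase response, whose 14 markers summed to 18213 FPKM there, against 6973 to 9753 FPKM elsewhere. The labels give no batch or date.

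Epoxide hydrolases were the most abundant members. Ephx2 (XLOC_006761, chromosome 14, 66084372 to 66124522) encodes the soluble epoxide hydrolase, which turns epoxides of arachidonic and docosahexaenoic acid into diols. It was measured at 412, 313, 425 and 481 FPKM in livers 1 to 4, a mean of 408 ± 69.8 FPKM (SD, n = 4). Liver 2 was lowest and liver 4 highest, 1.54-fold apart. Ephx1 (XLOC_001265, chromosome 1, 180989556 to 181017495) encodes the microsomal epoxide hydrolase, which acts on foreign compounds and also on fatty acid epoxides. Its values were 433, 351, 353 and 397 FPKM in livers 1 to 4, with a mean of 384 ± 39.2 FPKM (SD, n = 4). Here liver 1 was highest, and livers 2 and 3 were nearly equal at the low end.

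The levels of these 2 hydrolase genes did not separate. Ephx2 was the higher in livers 3 and 4 and Ephx1 in livers 1 and 2, and their ranges overlapped. The ratio of Ephx2 to Ephx1 was 0.951, 0.892, 1.20 and 1.21 in livers 1 to 4, a mean of 1.06 ± 0.167 (SD, n = 4). The other epoxide hydrolase genes were low. Ephx3 was listed at 0.114, 0, 0.113 and 0 FPKM and Ephx4 at 0.107, 0.353, 0 and 0 FPKM, so that Ephx1 and Ephx2 held nearly all of the summed level of the 4 hydrolases. The share of Ephx2 was 47.1% to 54.8% and that of Ephx1 45.2% to 52.8%. A value of 0 in this table can be a failed estimate, since Alb, the gene of the abundant liver protein albumin, was also listed at 0 in every liver.

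Lta4h (XLOC_001728, chromosome 10, 93453396 to 93484896) encodes leukotriene A4 hydrolase, which forms leukotriene B4, an attractant of neutrophils. Lta4h had 18.1, 15.4, 17.3 and 17.0 FPKM in livers 1 to 4, and the highest was 1.17 times the lowest. On the log2(FPKM + 1) scale Ptges3 was the 1 member with a smaller SD over the 4 livers, and without liver 2, the lowest, the SD of Lta4h fell from 0.09 to 0.04 on the log2(FPKM + 1) scale.

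The other leukotriene genes, Alox5ap and Ltc4s, were lower than Lta4h. Alox5ap (XLOC_016329, chromosome 5, 149265004 to 149288153) encodes the activating protein that presents arachidonic acid to Alox5. It was measured at 5.12, 3.49, 4.93 and 5.04 FPKM in livers 1 to 4. Liver 2 was low, and the other 3 livers lay close together. On the scale of log2(FPKM + 1), the gap between liver 2 and its nearest neighbour made up 0.896 of the whole range, more than Dixon's test for a single outlying value allows at the 95% level with 4 samples. Alox5ap was the 1 gene of 10 past this limit, beside 5.46% of the 10541 genes that averaged 1 FPKM or more. Without liver 2 the SD of Alox5ap was 0.02 on this scale, against 0.21 with it. In GENCODE an antisense gene, Gm19719, and an rRNA gene on the opposite strand overlap the span of Alox5ap. Whether the counting used strand is not given in the sources used here, and overlap with the exons was not tested.

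With the estimated depth, the value of Alox5ap in liver 2 rests on about 71 fragments, and those in the other livers on 100 to 108. The 95% Poisson interval (exact) for liver 2 was 2.72 to 4.40 FPKM. It held the value of no other liver, and the value of liver 2 lay below the lower bounds of the other 3, 4.01 to 4.20 FPKM, although the intervals themselves overlapped. These intervals cover counting error only and rest on an approximate depth and on a transcript of 1251 bases. GENCODE also lists a coding transcript of Alox5ap with 356 bases, which would give fewer fragments and wider intervals. The 10 macrophage and Kupffer cell markers, all averaging 1 FPKM or more and none at 0, summed to 341, 481, 341 and 461 FPKM in livers 1 to 4. The neutrophil markers, of which 7 of 8 were in the table and 3 averaged 1 FPKM or more, summed to 13.0, 21.7, 13.8 and 9.97 FPKM. Both sums were thus highest in liver 2, where Alox5ap was lowest. Among the macrophage and Kupffer cell markers, however, Cd68, Clec4f, Cd5l, Vsig4 and Lyz2 were each highest in liver 4. Adgre1, Csf1r, C1qa, C1qb and C1qc were each highest in liver 2. The part of either marker list in the result was not tested. In bulk tissue, fewer cells of a type and less RNA per cell cannot be told apart.

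Alox5 itself had 0.124, 0.0191, 0.0372 and 0.118 FPKM in livers 1 to 4, so that Alox5ap exceeded it between 41.3-fold and 183-fold within a liver. The Alox5 values are near the level of a few fragments, and the range of the ratio carries that error.

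Ltc4s (XLOC_003523, chromosome 11, 50236472 to 50238471) encodes leukotriene C4 synthase, which joins glutathione to leukotriene A4. It had 0.883, 0.936, 1.43 and 0.815 FPKM in livers 1 to 4. Liver 3 was highest, yet the transcript is short (480 bases), and each value corresponds to about 4 to 8 fragments. The Poisson interval in liver 3 was 0.617 to 2.82 FPKM and held the values of the other 3 livers, so no difference between livers was detectable for Ltc4s at this depth. An antisense gene, Gm26542, overlaps the span of Ltc4s in GENCODE, with the limit given for Alox5ap. Mast cells and basophils are known for making leukotriene C4. Of their markers, Cma1, Fcer1a, Mcpt4 and Mcpt8 were listed at 0 in all livers, which in this table can be a failed estimate, and 1 of 7, Kit, averaged 1 FPKM or more; the sum over the list was 0.851 to 1.23 FPKM. Mgst3 and Mgst2 encode membrane glutathione transferases of the same protein family. Mgst3 was at 37.9, 46.9, 25.9 and 48.6 FPKM, at least 18.1 times the level of Ltc4s in each liver, and Mgst2 was listed at 0, 0.149, 0.133 and 0 FPKM.

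Within the leukotriene genes the order was Lta4h above Alox5ap above Ltc4s in all 4 livers. Lta4h exceeded Ltc4s by 12.1-fold to 20.9-fold, and Alox5ap exceeded Ltc4s by 3.45-fold to 6.18-fold.

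Ptgs1 (XLOC_011280, chromosome 2, 36230426 to 36252271) encodes the constitutive cyclooxygenase, which makes the precursor of all prostaglandins and of thromboxane. Ptgs1 had 2.94, 3.73, 2.66 and 3.00 FPKM in livers 1 to 4. Liver 2 was highest, and livers 1 and 4 were nearly equal. A GENCODE gene of unsettled type on the opposite strand, Gm43621, overlaps the span of Ptgs1, with the same limit. The values of Ptgs1 rest on about 138 to 192 fragments, and the Poisson interval of liver 2, 3.22 to 4.30 FPKM, overlapped those of livers 1 and 4 but not that of liver 3, 2.23 to 3.14 FPKM. Leaving out liver 2 lowered the SD of Ptgs1 from 0.16 to 0.07 on the log2(FPKM + 1) scale. Endothelial markers, of which 7 of 8 averaged 1 FPKM or more and none was at 0, summed to 44.1, 57.2, 48.6 and 55.5 FPKM. Platelet markers, with 1 of 6 at such a mean and none at 0 in all livers, summed to 6.23, 11.9, 5.27 and 9.69 FPKM. Both were highest in liver 2 along with Ptgs1, but so were the sums of the macrophage and neutrophil markers, of the stellate cell and fibroblast markers (307 FPKM against 203 to 243 FPKM) and of the T, NK and B cell markers (5.61 FPKM against 4.42 to 5.22 FPKM). Clec4g, the highest of the endothelial markers, was itself highest in liver 4, at 33.6 FPKM against 28.5 FPKM in liver 2. The part of these markers in the result was not tested. The inducible cyclooxygenase gene Ptgs2 was listed at 0.0413, 0, 0.0129 and 0 FPKM, so that Ptgs1 made up at least 98.6% of the summed level of both as listed.

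Prostaglandin E synthases act on the cyclooxygenase product. Ptges3 (XLOC_001860, chromosome 10, 128058982 to 128077254) encodes the cytosolic enzyme, a protein also known as p23, a partner of the chaperone Hsp90. It had 40.9, 40.4, 37.9 and 44.2 FPKM in livers 1 to 4, with the smallest ratio of highest to lowest among the 10 genes (1.16). Ptges2 (XLOC_011253, chromosome 2, 32395890 to 32402740), a membrane-associated enzyme, had 11.5, 12.7, 13.5 and 14.6 FPKM. Liver 1 was lowest and liver 4 highest for Ptges2, a 1.27-fold range. Ptges, the inducible form, was at 0.409, 0.148, 0.400 and 0.329 FPKM. Ptges3 exceeded Ptges2 in every liver, with a ratio of 3.15 ± 0.316 (SD, n = 4), and the ranges of these genes did not overlap. Of the summed level of the 3 synthases, Ptges3 held 73.2% to 77.5%, Ptges2 21.8% to 26.0% and Ptges 0.278% to 0.773%.

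Degradation of prostaglandins starts with Hpgd. Hpgd (XLOC_020690, chromosome 8, 56294552 to 56321046) encodes the dehydrogenase that oxidises a hydroxyl group of prostaglandins and lipoxins, and that is also known to convert RvD1 to less active products. It was measured at 53.9, 65.8, 41.2 and 72.0 FPKM in livers 1 to 4, a mean of 58.2 ± 13.6 FPKM (SD, n = 4). Liver 4 was highest and liver 3 lowest, 1.75-fold apart. A GENCODE gene of unsettled type, Gm45540, overlaps the span of Hpgd on the same strand, so that counting by strand would not separate them. Its SD of 0.35 on the log2(FPKM + 1) scale over the 4 livers was the largest of the 10 genes and larger than that of 94.4% of the 10541 genes that averaged 1 FPKM or more. That rank depended on the scale and on single livers. Ptgr1 had the larger SD with a pseudocount of 0.1 (0.49 against 0.36 for Hpgd) and without liver 4 (0.40 against 0.33). Without liver 3 the SD of Hpgd was 0.21, below those of Ephx2 (0.31), Alox5ap (0.25) and Ptgr1 (0.24).

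Ptgr1 (XLOC_015085, chromosome 4, 58965590 to 58987078) encodes a reductase that acts on the product of Hpgd and also inactivates leukotriene B4. It had 2.77, 2.24, 1.20 and 1.70 FPKM in livers 1 to 4, and the ratio of highest to lowest, 2.30, was the widest among the 10 genes. Liver 1 was highest and liver 3 lowest. About 117 fragments lay behind the value in liver 1 and 49 behind that in liver 3, and their Poisson intervals, 2.29 to 3.32 and 0.890 to 1.59 FPKM, did not overlap. Hpgd exceeded Ptgr1 by 19.5-fold, 29.3-fold, 34.3-fold and 42.3-fold in livers 1 to 4. Both had their lowest value in liver 3, but their highest values fell in different livers.

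Ptgr1 was the least abundant of 3 reductases with this activity. Ptgr2 was at 29.0, 29.6, 27.5 and 36.4 FPKM, and Zadh2, now also called Ptgr3, was at 33.1, 32.2, 34.7 and 36.4 FPKM. Ptgr1 held 4.27%, 3.50%, 1.90% and 2.28% of their sum in livers 1 to 4. Zadh2 exceeded Ptgr1 between 12.0-fold and 28.9-fold, and the range of neither Ptgr2 nor Zadh2 overlapped that of Ptgr1.

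**Figure D2:**
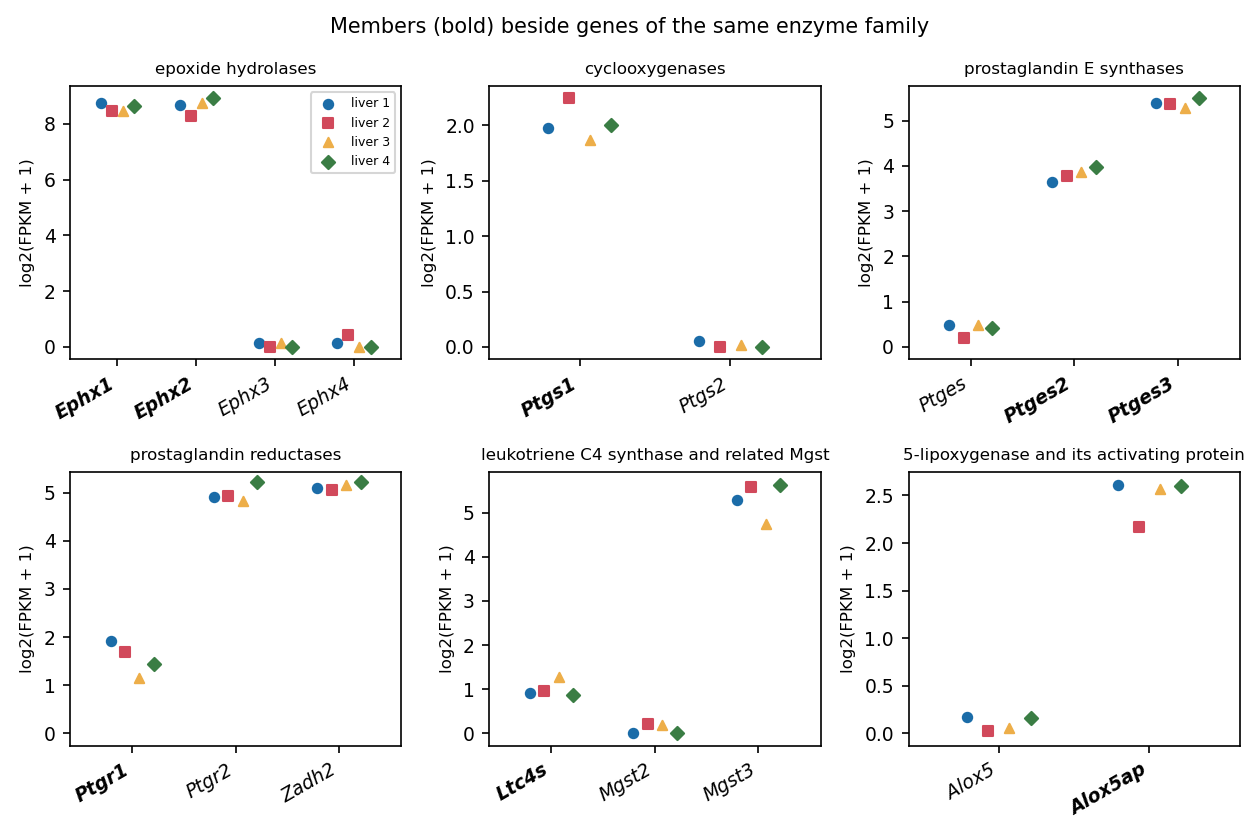
Levels of the examined genes (bold) beside other genes grouped with them by role, on the scale log2(FPKM + 1). There is a point for each of the 4 livers and a separate y axis in each panel. Ptgs1, Alox5ap, Ptges3 and both Ephx1 and Ephx2 lead their panels, whereas Ptgr1 lies below Ptgr2 and Zadh2, and Ltc4s lies below Mgst3.

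Neighbours in the order of levels were compared within livers. The order was the same in 4 of 4 livers for Ephx1 above Hpgd, Hpgd above Ptges3, Ptges3 above Lta4h, Lta4h above Ptges2, Ptges2 above Alox5ap, and Ptgs1 above Ptgr1. It held in 3 of 4 livers for Alox5ap above Ptgs1 and for Ptgr1 above Ltc4s, and in 2 of 4 for Ephx2 above Ephx1. Ranges overlapped for Ephx2 and Ephx1, Hpgd and Ptges3, Alox5ap and Ptgs1, Ptgs1 and Ptgr1, and Ptgr1 and Ltc4s, and did not overlap for the other 4 pairs. The widest step was that from Ephx1 to Hpgd, a mean difference of 2.72 ± 0.35 on the log2(FPKM + 1) scale (SD, n = 4). Hpgd exceeded Ptges3 by 0.47 ± 0.28 and Alox5ap exceeded Ptgs1 by 0.46 ± 0.36 on that scale (SD, n = 4). No p is given for these pairs, because an exact paired permutation test over 4 livers cannot go below 0.125 (two-sided).

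No liver was high or low in all 10 genes. The lowest value was in liver 2 for Ephx1, Ephx2, Lta4h and Alox5ap, and in liver 3 for Hpgd, Ptgr1, Ptgs1 and Ptges3. That is 4 of 10 genes each, beside 29.9% of the 10541 genes for liver 2 and 31.4% for liver 3. The highest value was in liver 4 for Ephx2, Hpgd, Ptges2 and Ptges3 and in liver 1 for Ephx1, Lta4h, Ptgr1 and Alox5ap, again 4 of 10 each, beside 33.3% and 17.9% of all genes. Ptgs1 alone was highest in liver 2 (22.0% of all genes), Ltc4s alone was highest in liver 3 (26.8%) and lowest in liver 4 (18.1%), and Ptges2 alone was lowest in liver 1 (20.7%). With 10 genes, 1 gene moves a share by 10 percentage points, and nothing particular to these genes is read from the counts. Beside the low values of Ephx2 and Ephx1 in liver 2, the 8 hepatocyte markers summed to 43372 FPKM there and to 52421 to 56456 FPKM in the other livers, but 3 of the 8 were lowest in liver 2. Without Apoa2, left out after its values were seen, the sums were 36154, 32207, 31756 and 42937 FPKM in livers 1 to 4, and liver 3 was lowest. The part of these markers in the result was not tested.

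**Figure D3:**
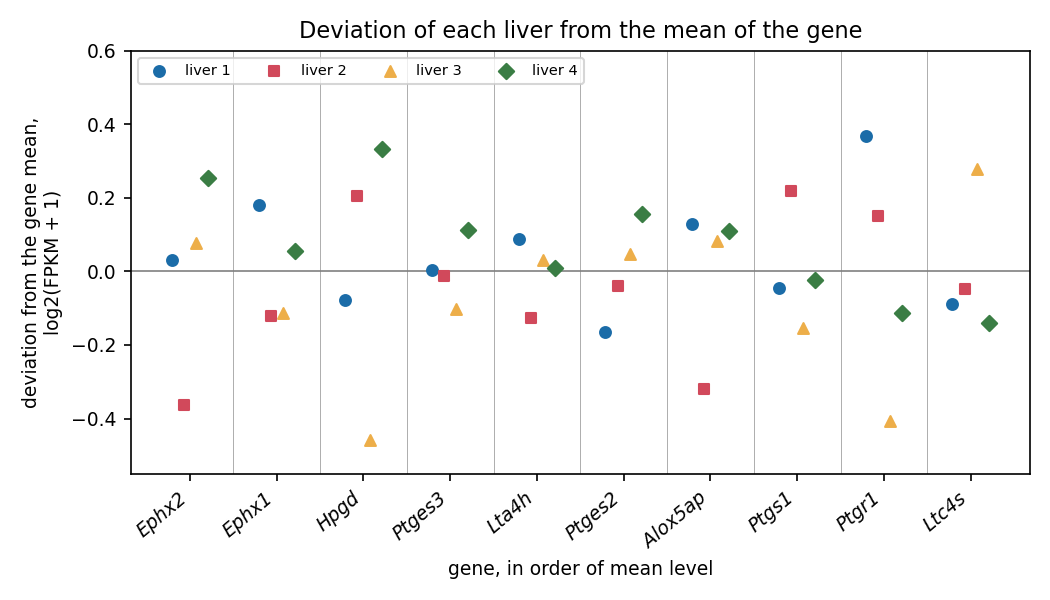
Deviation of each liver from the mean of the gene over the 4 livers, in units of log2(FPKM + 1) (y axis), for the 10 genes in order of mean level (x axis). Liver 2 lies lowest for Ephx2 and Alox5ap and highest for Ptgs1, and liver 3 lies lowest for Hpgd and Ptgr1.

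The spread between livers differed widely among the 10 genes, around a median near that of all genes. The median SD of log2(FPKM + 1) was 0.17 over the 10 genes and 0.16 over the 10541 genes that averaged 1 FPKM or more, and 5 of the 10 lay above the latter. A ratio of at least 1.5 between the highest and the lowest liver was found for Ephx2, Hpgd, Ptgr1 and Ltc4s, 4 of 10, beside 28.4% of all genes. The genes ranged from Hpgd and Ptgr1, with SDs of 0.35 and 0.33, to Lta4h and Ptges3, with SDs of 0.09 and 0.09, at percentiles 15.4 and 14.2 of all genes. The smallest SD passed to Lta4h without liver 1 (0.09), to Alox5ap without liver 2 (0.02), and to Ltc4s without liver 3 (0.05) and with a pseudocount of 5 (0.07). The SDs of Ephx2 and Ephx1 were 0.26 and 0.15, and their order turned without liver 2, at 0.12 and 0.15. For Ltc4s the SD of 0.19 was below the 0.31 that counting error of about 5.5 fragments would give by itself. For Ptgr1 it was 0.33 against 0.11.

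**Figure D4:**
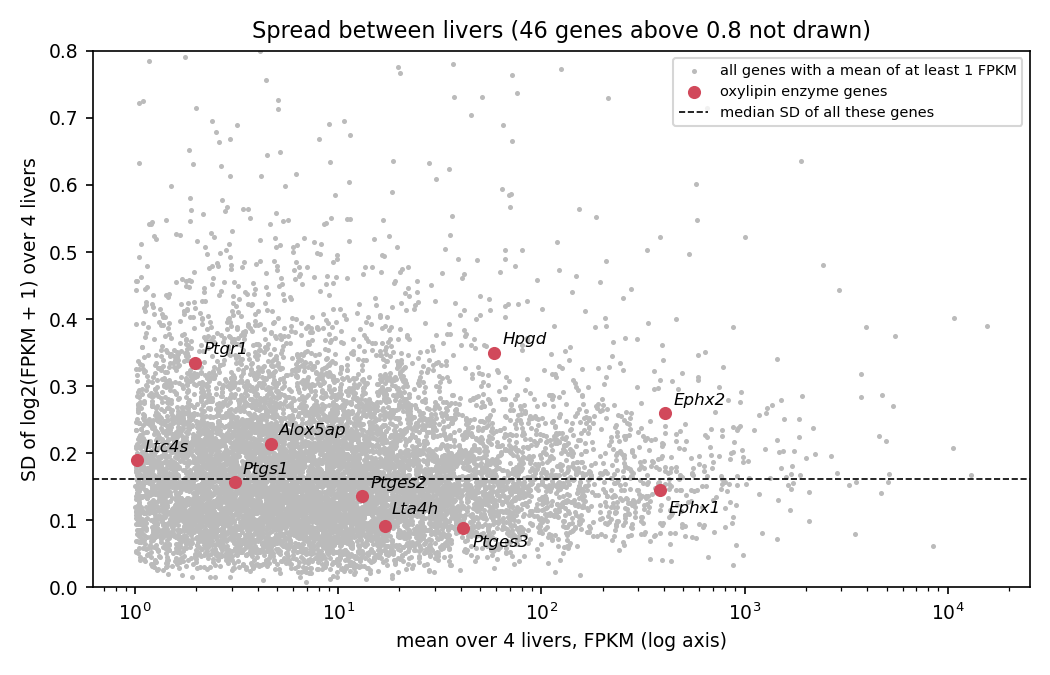
SD of log2(FPKM + 1) over the 4 livers (y axis) against mean level in FPKM on a log axis (x axis), for the 10 examined genes (red) and all genes averaging 1 FPKM or more (grey), of which 46 lie above the axis. The dashed line is the median SD of all these genes, 0.16; Hpgd and Ptgr1 lie well above it and Ptges3 and Lta4h below it.

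Promoter sequences of Hpgd and Ptges3, which had the largest and the smallest SD on the log2(FPKM + 1) scale over the 4 livers, are shown to set their base composition side by side. They run from 250 bases before the RefSeq start to 20 bases past the earlier of the RefSeq and GENCODE starts, in build GRCm38.p6 as given by RefSeq. Capitals mark each CG, the dinucleotide that can be methylated, and the letters TATAAA. The Hpgd stretch is chr8:56294302-56294571 on the plus strand and the Ptges3 stretch is chr10:128058732-128058973 on the plus strand.
Hpgd: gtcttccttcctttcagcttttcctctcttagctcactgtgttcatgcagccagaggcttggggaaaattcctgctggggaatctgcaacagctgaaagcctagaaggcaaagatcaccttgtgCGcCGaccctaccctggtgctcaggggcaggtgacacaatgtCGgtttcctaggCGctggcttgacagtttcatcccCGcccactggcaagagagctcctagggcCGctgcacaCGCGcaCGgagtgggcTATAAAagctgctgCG
Ptges3: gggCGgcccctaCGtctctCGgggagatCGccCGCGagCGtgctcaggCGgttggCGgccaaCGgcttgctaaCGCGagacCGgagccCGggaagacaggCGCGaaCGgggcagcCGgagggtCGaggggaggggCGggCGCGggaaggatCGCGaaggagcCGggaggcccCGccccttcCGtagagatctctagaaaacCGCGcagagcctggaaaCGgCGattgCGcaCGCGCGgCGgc

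RefSeq promoters were matched for 8 of the 10 genes. Over windows of 270 bases, the Ptges3 promoter held 39 CG dinucleotides and was 71.9% G+C, more CG than 97.4% of 32851 promoter windows. The Hpgd promoter held 10 and was 56.7% G+C, against a median of 6 over all windows. The other matched genes held 16 (Ptges2), 14 (Lta4h), 7 (Ptgr1), 5 (Ptgs1 and Ltc4s) and 4 (Ephx1). The letters TATAAA, searched on both strands, were found in the windows of Hpgd and Ephx1, 2 of 8, and in 12.9% of all windows. In Hpgd they begin at 56294556, 4 bases past the RefSeq start at 56294552 and 29 bases before the start of the GENCODE transcript. In Ephx1 they begin 214 bases before the start, which both annotations place at the same base. A match of letters is a description and not a binding site.

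Other genes of the pathway, from lists fixed for this work, ranged widely. Of 19 genes of fatty acid release, lipoxygenation and synthesis in the table, 6 averaged 1 FPKM or more, led by Mgst3 and the phospholipase genes Pla2g12b (33.0 ± 5.28 FPKM) and Pla2g6 (32.1 ± 5.01 FPKM; each SD, n = 4). Of 24 cytochrome P450 genes of the epoxygenase and omega-hydroxylase groups, 23 were at such a level. Cyp4a10, Cyp2c70 and Cyp2c50 had 229 ± 21.3, 226 ± 55.2 and 199 ± 38.6 FPKM (SD, n = 4), so that both Ephx1 and Ephx2 were above the highest gene of the group in every liver. Of 17 other degrading and transport genes, 9 were at such a level, led by Akr1c6 at 713 ± 128 FPKM, Akr1c14 at 86.9 ± 8.50 FPKM and Cbr1 at 71.3 ± 8.05 FPKM (SD, n = 4). Receptors for oxylipins were low, with 3 of 20 averaging 1 FPKM or more, namely Ptger1, Cmklr1 and Fpr1. Many of these P450 and aldo-keto reductase genes have close relatives between which fragments can be divided in error.

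The genes whose deviations over the 4 livers lay nearest to those of the 3 members with the largest SDs on the log2(FPKM + 1) scale were found in a search of 6532 genes that averaged 5 FPKM or more, by Euclidean distance on the log2(FPKM + 1) scale. For Hpgd these were Bcap29 (0.04), Ctsz (0.05) and Hsd17b13 (0.07). For Ptgr1 they were Hmgcs1 (0.07), Cyp4a14 (0.10) and Haus8 (0.13), and for Ephx2 they were Slc39a7 (0.03), Mgll (0.04) and Dio1 (0.04). With a minimum mean of 1 FPKM, 2 of the 3 genes stayed nearest to Ptgr1, and 3 of 3 did so for Hpgd and for Ephx2. The distances are given as a description, and how near the matches of other genes lie was not tested.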

How the data were processed

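The authors deposited 1 table with a value per gene for each of 4 livers, 1 group of male mice given the FAT-MASH diet and RvD1. The deposited values were taken as FPKM, because the submitters' processing notes name Cufflinks 2.2.1 and the values are neither whole nor equal in sum. These notes also name FastQC 0.10.1, Trim Galore 0.6.3, cutadapt, STAR 2.7.6a and build mm10; the annotation and strand setting are not given in the sources used here. Libraries were enriched for poly(A) RNA, per the labels' protocols. Columns were matched to samples through the description labels, with 0 columns unmatched. With 1 added to the deposited starts, 8 of 10 members matched the RefSeq start, here the lower coordinate, in GRCm38.p6, and coordinates are given so. Both ends matched for 6 members, and the largest difference was 13684 bases, at the start of Ptgs1.

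No comparison between groups was possible. Means, SDs, ratios within livers, SDs of log2(FPKM + 1) with a pseudocount of 1, and Dixon's ratio were computed in Python 3.11.15 (numpy 2.4.6, pandas 2.3.3, scipy 1.17.1) over genes that averaged 1 FPKM or more, after tests on simulated data. Low genes are understated on this scale. Depth was estimated from 3436 genes with 1 GENCODE transcript over 800 bases, less 200 bases, and is approximate; no member's span overlapped another row. Named genes were all members, the 3 highest of each pathway list and the nearest genes; other genes were named after their values were seen. Members and lists were chosen with earlier results of these data known. Planned protein features were not analysed here. Alternatives were pseudocounts of 0.1 and 5, minimum means, scaling and leaving out each liver. The labels number the samples as livers 1 to 4 and do not state that each came from a separate animal, so the SDs measure the spread between these samples.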

Additional observations from a re-analysis of the deposited data

Results flagged for a closer look

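The Alox5ap value of liver 2, 3.49 FPKM, lay below the 4.93 to 5.12 FPKM of its companions by a gap that was large against its whole range over 4 livers. Ptger1, a prostaglandin E receptor gene, had its lowest value, 2.37 FPKM, in liver 2, against 2.52, 2.52 and 2.53 FPKM in livers 1, 3 and 4, a small difference in level. Chance puts about 1 in 20 groups past this limit, and 5.46% of the genes that averaged 1 FPKM or more were past it.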

How the results depend on the processing

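The order of the 10 genes by mean was unchanged with the median in place of the mean and without each liver in turn. All 10 means moved by less than 1 SD under median-ratio scaling. The 10 means and the 5 ratios also moved by less than 1 SD without any 1 liver. With 4 livers, leaving out 1 cannot move a mean by 1 SD, so nothing is concluded from that check. Rescaling each liver to a sum of 1000000 changes the unit and raised the means to 763 for Ephx2, 719 for Ephx1, 108.7 for Hpgd, 76.6 for Ptges3, 31.8 for Lta4h, 24.5 for Ptges2, 8.70 for Alox5ap, 5.79 for Ptgs1, 3.72 for Ptgr1 and 1.92 for Ltc4s. The median SD of the 10 genes was 0.23 with a pseudocount of 0.1 and 0.11 with 5, beside 0.19 and 0.11 over all genes, which was 0.14 with no filter on low values. Leaving out 1 liver gave 0.13 (without liver 2) to 0.20 for the 10 genes and 0.14 to 0.17 for all genes. The call of Alox5ap held on the linear scale, with a pseudocount of 0.1 and with median-ratio scaling; with a minimum mean of 5 FPKM 0 members were called, since the mean of Alox5ap is below it. Subtracting 100 or 300 bases from transcript lengths, chosen after seeing the data, moved the estimated depths to between 18.2 and 21.1 M fragments. The window of values used was the same throughout, so this change cannot tell how far the estimate depends on that window. Depth limits Ltc4s most. No paired analysis was possible because the series holds 1 group, so that no groups could be paired; differences between genes were taken within livers.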

Other observations

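The row nearest to Ptges2 in the table was Lcn2, an acute phase gene (chromosome 2, 32384637 to 32387739) whose span ends 8151 bases before that of Ptges2. Lcn2 was at 114, 714, 55.4 and 103 FPKM in livers 1 to 4, with liver 2 highest, 12.9 times the lowest. Over the same livers Ptges2 varied 1.27-fold and was highest in liver 4.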
